A study of Homo sapiens with 8 samples.

Results

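The comparison described here asks which gene knockdowns change growth differently in cells that express mutant uL16 and in cells that express wild-type uL16. All 8 libraries of the series entered it. They come from K562 cells, an established human leukemia line, that express dCas9-KRAB, a catalytically inactive Cas9 joined to a transcriptional repressor, and carry a genome-wide pool of sgRNAs, each of which represses 1 promoter. The 4 groups are wild-type uL16 at day 0, wild-type uL16 at day 9, mutant uL16 at day 0 and mutant uL16 at day 9, with 2 libraries in each. All groups share the dCas9-KRAB background, the sgRNA pool and a puromycin selection, and both lines express their uL16 stably. The labels do not name the uL16 mutation, nor do they give whether each line is a single clone, or whether replicates were separate cultures, so the p-values measure only the spread between these libraries.

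For each gene, the counts of its sgRNAs at the primary promoter were summed. The growth change of a line is the log2 ratio of day 9 to day 0, and the difference is the change in mutant cells minus the change in wild-type cells. A negative difference is called synthetic sick (the knockdown costs the mutant line more), and a positive one buffering (it costs the mutant line less). sgRNAs with a mean count of at least 20 over the 8 libraries and genes with at least 3 such sgRNAs were used, which gave 18905 genes and 95987 sgRNAs.

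The ribosomal protein uL16, encoded by RPL10, is one of the last proteins added to the large (60S) ribosomal subunit. It is placed in the cytoplasm, after the export adaptor NMD3 has carried the subunit out of the nucleus. The GTPase LSG1 then releases NMD3, and SBDS with the GTPase EFTUD1 (also known as EFL1) releases the anti-association factor eIF6, so that the subunit can join a small (40S) subunit. Separate factors clear the region of the polypeptide exit tunnel, among them ZNF622 and the J-domain co-chaperone DNAJC21. Cells also hold quality control pathways for faulty ribosomes and for ribosomes that stall during translation.

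Library totals ran from 39233340 to 143585751 counts, with a median of 331 to 1224 counts per kept sgRNA. Replicates of day 9 differed more than replicates of day 0: the SD of the log2 difference between replicates over genes was 0.135 and 0.112 at day 0 in wild-type and mutant cells, and 0.209 and 0.193 at day 9. For 1894 non-targeting control sgRNAs the difference had a median of -0.01, an SD of 0.459, a 5th percentile of -0.68 and a 95th percentile of 0.73. Known K562 dependencies were used to check the cell label. In wild-type cells 4 of 9 fell and in mutant cells 5 of 9, among them the erythroid factor GATA1 at -3.09 and -2.66 and BCR, a partner of the BCR-ABL1 fusion, at -1.89 and -2.21. ABL1, the other partner, was at 0.09 and 0.08, BCL2L1 at 0.08 and -0.09, STAT5B at -0.09 and 0.02 and GRB2 at -0.09 and -0.33, none past the threshold in either line. Of all 18905 genes 8.7% fell in wild-type and 8.53% in mutant cells (edgeR adjusted p under 0.05).

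The difference between the lines passed the threshold for 3 genes, ZNF574, ZNF622 and RPL10, all synthetic sick. These are 0.0159% of the genes tested with edgeR's quasi-likelihood test (Benjamini-Hochberg adjusted p under 0.05), and the buffering side held 0 genes (0%). At an unadjusted p under 0.05, 540 genes were lower in mutant cells (2.86%) and 513 higher (2.71%). DESeq2 called more, 28 lower (0.148%) and 19 higher (0.101%). Single libraries moved the edgeR counts: 1 gene was called without wild-type day 0 replicate 1, 5 without either mutant day 9 replicate and 18 without wild-type day 9 replicate 1. The unadjusted count of 1053 fell when any single day 0 library was left out, in either line. It rose when any single day 9 library was left out. The median difference over all genes was 0.00, the median absolute difference was 0.11, and the median SE of a difference was 0.150. Differences beyond 0.5 on the log2 scale were found for 96 genes on the negative and 65 on the positive side. Beyond 1 there were 13 negative and 2 positive genes, and 8 of the 13 but 0 of the 2 had every sgRNA and every pairing of replicates in that direction. Beyond 2 there was ZNF574.

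**Figure D1:**
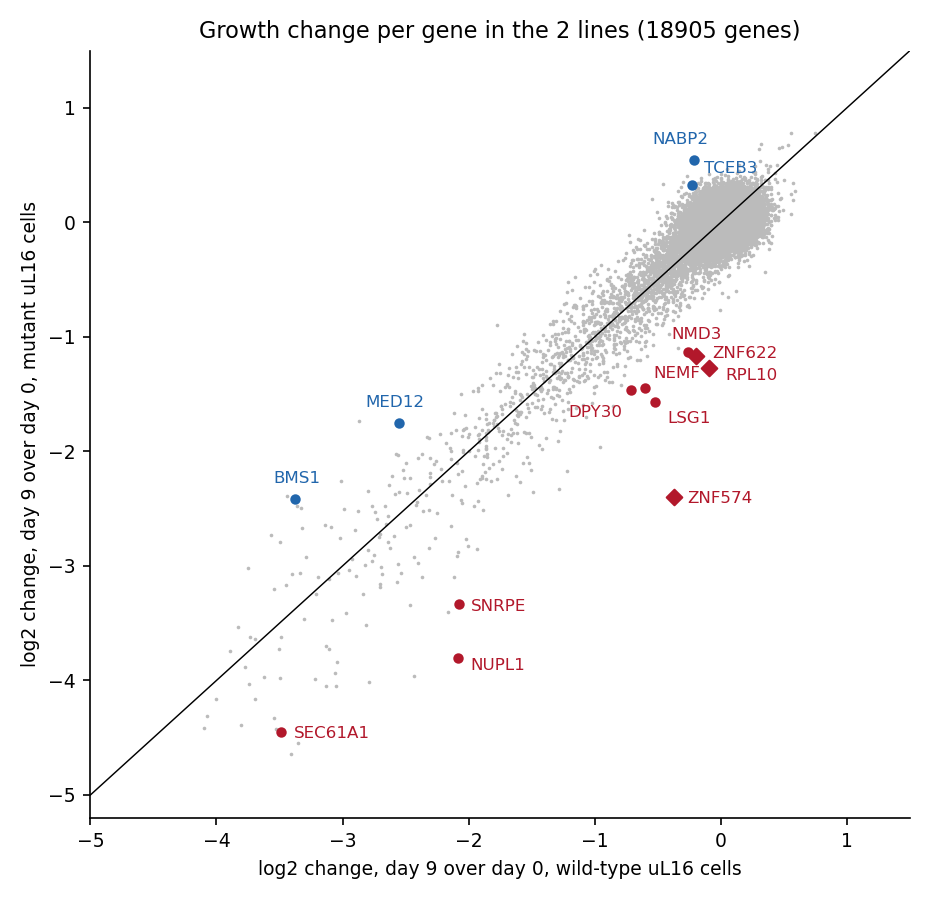
Log2 growth change of each of 18905 genes in wild-type (x axis) and mutant uL16 cells (y axis), with the line of equal change. Each grey point is a gene; red marks named genes that are lower and blue those that are higher in mutant cells, and diamonds mark the 3 genes with an edgeR adjusted p under 0.05. ZNF574, at -0.37 and -2.40, is the diamond farthest below the line.

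ZNF574, a zinc finger protein that the series title names, showed the most negative difference of all genes tested. Its 5 primary sgRNAs summed to 39.9 and 40.1 CPM (counts scaled to library size) in the wild-type day 0 libraries and to 34.6 and 27.4 CPM at day 9. In mutant cells they summed to 40.9 and 39.8 CPM at day 0 and to 7.60 and 7.73 CPM at day 9. The mutant day 9 libraries were below the other 6, and the wild-type day 9 libraries were below all 4 day 0 libraries. The difference of -2.03 (SE 0.199, 95% interval -2.43 to -1.62, edgeR adjusted p = 2.84e-07) was a 4.08-fold lower ratio, and over the 4 pairings of replicates it ran from -2.22 to -1.81. The wild-type change by itself, -0.37, missed the threshold (edgeR adjusted p = 0.0963).

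Each ZNF574 sgRNA was lower in mutant cells. In wild-type cells 27.4% to 85.9% of the day 0 level was left at day 9 for 4 of them and slightly over the day 0 level for the other one, and in mutant cells 8.9% to 36.5%. The sgRNA with the largest difference (-2.87) went from 65% left to 8.9% left, and the one with the smallest (-1.28) was also the one that was lowest in wild-type cells, at 27.4% left. All 5 lay below the 5th percentile of the control sgRNAs. A second set of 5 sgRNAs, aimed at another ZNF574 promoter, gave changes of -0.18 in wild-type and 0.01 in mutant cells, a difference of 0.19 (SE 0.127, edgeR adjusted p = 0.932 among second promoters). These second-promoter sgRNAs were more abundant than the primary ones, at 56.0 to 67.5 summed CPM, and with both promoters summed the difference of ZNF574 was -0.29 and not past the threshold (adjusted p = 0.898). Of 1393 genes with at least 3 second-promoter sgRNAs, 0 passed edgeR's threshold for the difference, with 31 lower and 29 higher at an unadjusted p under 0.05.

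ZNF622, the human counterpart of a yeast factor that checks the exit tunnel of late 60S particles, summed to 55.0 and 60.1 CPM at day 0 and 49.9 and 50.6 CPM at day 9 in the wild-type line. The mutant values were 59.6 and 60.1 CPM at day 0 and 29.4 and 24.2 CPM at day 9. The mutant day 9 libraries stood below the other 6. The changes were -0.20 in wild-type (edgeR adjusted p = 0.329) and -1.17 in mutant cells, and the difference was -0.97 (SE 0.152, 95% interval -1.28 to -0.66, adjusted p = 0.00378). All 5 ZNF622 sgRNAs were lower in mutant cells, by differences from -1.94 to -0.34, and 4 of them lay below the 5th percentile of the controls. Of those, 2 were near their day 0 level in wild-type cells, at 110% and 113% left, and at 58.5% and 37.2% in mutant cells. Without wild-type day 0 replicate 1 the ZNF622 difference was -0.91 and missed the threshold (edgeR adjusted p = 0.288).

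RPL10 encodes uL16 itself, and its sgRNAs aim at the promoter of the cells' own gene. Whether the expressed uL16 is also repressed is not given in the labels. The 4 sgRNAs of RPL10 summed to 30.0 and 32.5 CPM at day 0 and 25.2 and 33.3 CPM at day 9 in wild-type cells, so the days overlapped. In mutant cells they summed to 30.2 and 31.0 CPM at day 0 and 11.8 and 13.5 CPM at day 9, below all other libraries. The change was -0.09 in wild-type (SE 0.152) and -1.27 in mutant cells (SE 0.156), and the difference was -1.17 (SE 0.217, 95% interval -1.62 to -0.73, edgeR adjusted p = 0.0396).

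The sgRNAs of RPL10 did not act alike. The most abundant one went from 115% left in wild-type to 33.7% left in mutant cells, a difference of -1.77. A sparser sgRNA was already depleted in wild-type cells, with 10.4% left, against 5.69% in mutant cells, a difference of -0.86. The other 2 had differences of -0.96 and -0.54. Without the most abundant sgRNA the difference of RPL10 was -0.45 (edgeR adjusted p = 0.937), and its call was also lost without each library other than wild-type day 9 replicate 1 and mutant day 9 replicate 2, with adjusted p from 0.132 to 0.765.

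**Figure D2:**
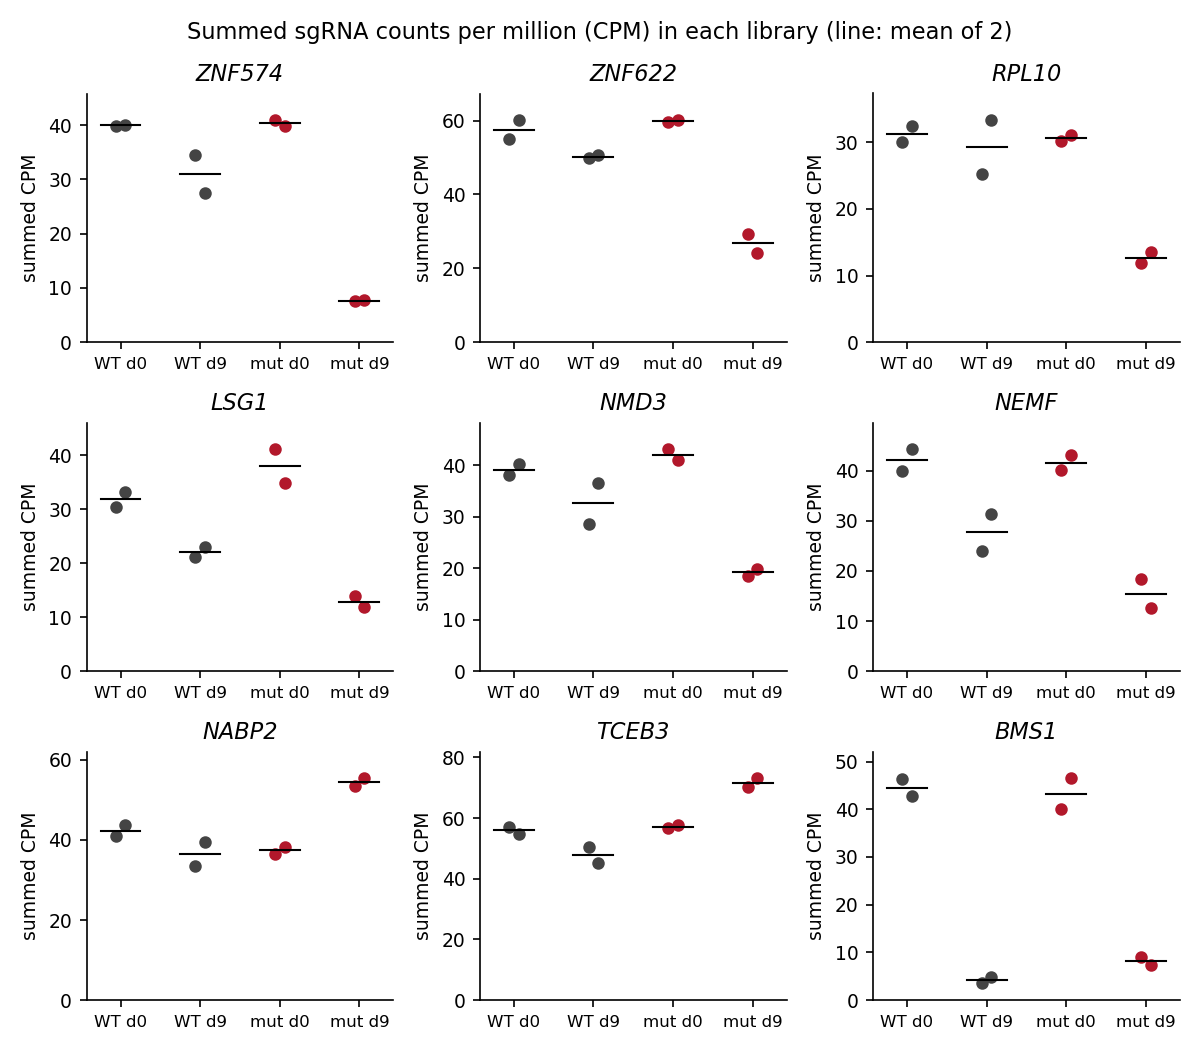
Summed primary-promoter sgRNA level (CPM) of 9 genes in each of the 8 libraries (WT, wild-type uL16; mut, mutant uL16; d0 and d9, day 0 and day 9). Points are libraries and lines the mean of 2. ZNF574 is at 7.60 and 7.73 CPM in the mutant day 9 libraries and at 27.4 CPM or more in the other 6, whereas for NABP2 and TCEB3 the mutant day 9 libraries are the highest.

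ZNF622 and RPL10 belong to a list of 16 cytoplasmic 60S maturation factors, in which RPL10 stands as the protein being loaded. In this list 5 genes, or 31.2%, had an unadjusted p under 0.05 on the synthetic sick side and 0 on the buffering side, beside 2.86% and 2.71% of all genes. The median difference was -0.12, beside 0.00 for all genes. In wild-type cells 7 of the 16 fell and in mutant cells 11. The 5 genes were the 3 of the uL16 loading step (RPL10, LSG1 and NMD3) and 2 of the 3 tunnel factors (ZNF622 and DNAJC21). Since the list and the comparison were chosen with earlier results known, the counts describe these genes and are no separate test.

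Among the factors of the loading step, LSG1 summed to 30.4 and 33.2 CPM at day 0 and 21.2 and 23.1 CPM at day 9 in the wild-type line. In the mutant line it summed to 41.1 and 34.9 CPM at day 0 and 14 and 11.8 CPM at day 9. The difference was -1.04 (SE 0.211), with 5 of 5 sgRNAs lower, and just missed the threshold in edgeR (adjusted p = 0.0787). The day 0 libraries of the mutant line were higher than those of the wild-type line for LSG1, by 0.26 on the log2 scale. At day 9 the mutant line was lower by -0.79 (SE 0.153). Of the 5 LSG1 sgRNAs, 1 with 6.44% left in wild-type and 6.1% in mutant cells showed almost no difference (-0.08), whereas the sgRNA with the largest difference (-2.28) was close to its day 0 level in wild-type cells, at 117% left, and at 24% in mutant cells. DESeq2 and limma-voom, the second chosen after seeing the data, called LSG1 (adjusted p = 0.000129 and 0.0451). In all, 5 of the 19 alternative settings called it.

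NMD3, the export adaptor that LSG1 releases, summed to 28.6 and 36.6 CPM at day 9 in wild-type cells and to 18.5 and 19.8 CPM in mutant cells. At day 0 it stood between 38 and 43.1 CPM in all 4 libraries. The difference was -0.87 (SE 0.186, edgeR adjusted p = 0.125, DESeq2 adjusted p = 0.000706). The sparsest of the 5 NMD3 sgRNAs went the other way, with 32.5% left in wild-type and 77.7% in mutant cells. The remaining 4 were lower in mutant cells by differences from -1.38 to -0.41.

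DNAJC21, the co-chaperone of the tunnel region, had a difference of -0.51 (SE 0.150, edgeR adjusted p = 0.717), with 4 of 5 sgRNAs lower. Its wild-type day 9 libraries were 64.8 and 50.2 CPM and its mutant ones 40.3 and 39.6 CPM. PA2G4, the counterpart of a yeast factor that is removed from the tunnel exit at the DNAJC21 step, had almost the same change in both lines, -0.39 and -0.39, with a difference of -0.01 (SE 0.136).

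For the eIF6 step, no gene passed even the unadjusted threshold. EFTUD1 fell in both lines, at -0.94 and -1.16 (difference -0.22, SE 0.128). EIF6 also fell in both, at -1.14 and -1.38 (difference -0.24, SE 0.185), and SBDS had changes of -0.01 and -0.12 (difference -0.11, SE 0.158). Differences of this size cannot be told from 0 at this spread. The 3 median differences were -1.04 for the loading step, -0.51 for the tunnel step and -0.22 for the eIF6 step, and the 7 earlier-acting factors had a median of 0.04. The earlier group holds the AAA-ATPase proteins SPATA5 and SPATA5L1, their partners C1orf109 and CINP, and RSL24D1, MRTO4 and GTPBP4, which leave it in the first cytoplasmic steps. Their differences ran from -0.12 for CINP to 0.17 for GTPBP4, and 0 of the 7 had an unadjusted p under 0.05 in edgeR. CINP shares at least 1 sgRNA position with TECPR2 and cannot be told from it there, and the sgRNAs of SPATA5L1, MRTO4 and SPATA5 lie within 1000 bases of those of GATM, EMC1 and NUDT6.

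**Figure D3:**
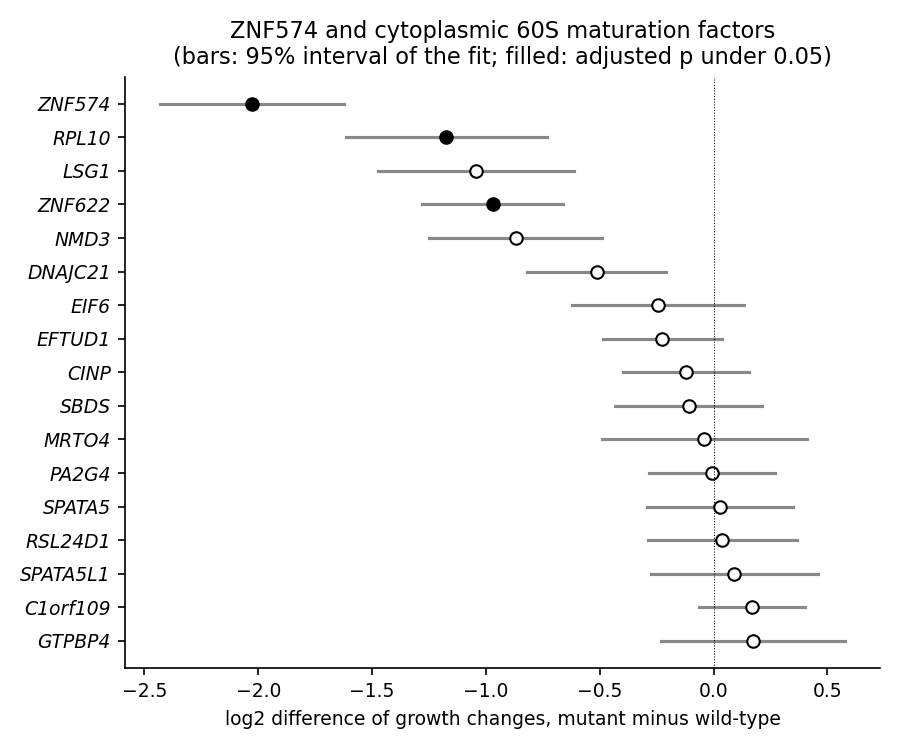
Log2 difference of growth changes (mutant minus wild-type) of ZNF574 and the 16 cytoplasmic 60S maturation factors, with 95% intervals of the edgeR fit. Filled points have an adjusted p under 0.05. The intervals of ZNF574, RPL10, LSG1, ZNF622, NMD3 and DNAJC21 lie below 0 and those of the other 11 genes include it.

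**Figure D4:**
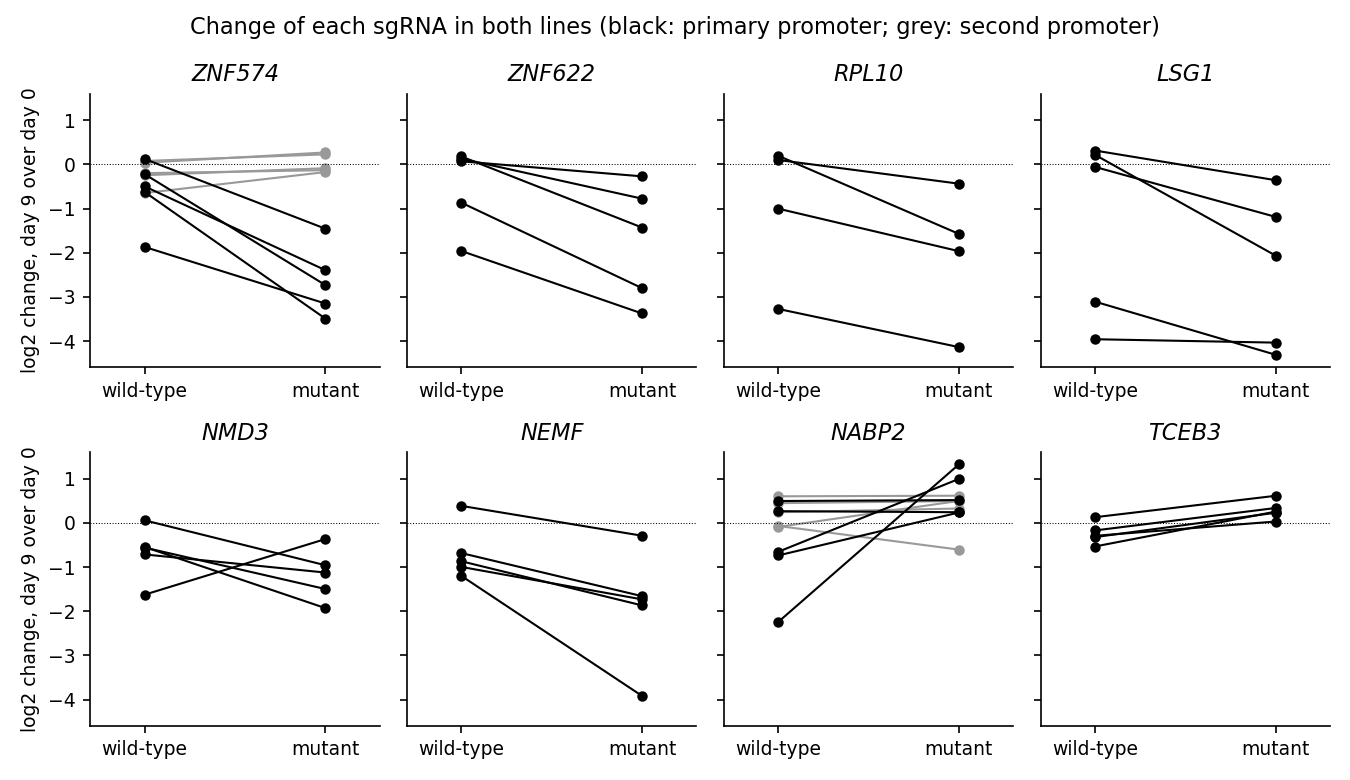
Log2 change from day 0 to day 9 of each sgRNA of 8 genes in wild-type and mutant cells, joined by a line per sgRNA. Black marks primary-promoter and grey second-promoter sgRNAs. The 5 black lines of ZNF574 fall and its 5 grey lines do not, and 1 line of NMD3 crosses the other 4.

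The wider lists of ribosome production lay closer to the counts over all genes, of which 2.86% were lower and 2.71% higher at an unadjusted p under 0.05. Of 46 genes for 60S ribosomal proteins, 1 was lower (2.17%) and 2 were higher (4.35%) at that threshold. The list had a median difference of -0.04. The lower one was RPL38 (-0.58, SE 0.225), with 4 of 5 sgRNAs lower. The higher ones were RPL5 (0.59, SE 0.262), which joins the 5S RNA particle, and RPL9 (0.53, SE 0.258), whose sgRNAs lie near those of LIAS. Only 3 of 5 sgRNAs were higher for each of RPL5 and RPL9, and single RPL5 sgRNAs ran from -1.06 to 2.54. Of 33 genes for 40S ribosomal proteins, 2 were lower (6.06%) and 2 higher (6.06%), with a median of 0.06. GNB2L1, the scaffold protein RACK1 on the small subunit, was among the higher ones at 0.54 (SE 0.181, 4 of 5 sgRNAs higher). RPS19 was among the lower ones at -0.41 (SE 0.164, 3 of 5 sgRNAs lower). Nuclear 60S assembly factors had 4 of 55 lower (7.27%) and 0 higher, with a median of -0.07. These were FTSJ3, DDX54, RBM28 and GNL3L, from -0.56 to -0.36. Lower sgRNAs were 3 of 5 for FTSJ3, 4 of 5 for DDX54 and GNL3L and 5 of 5 for RBM28. The sgRNAs of FTSJ3 lie near those of the proteasome gene PSMC5, and those of DDX54 near those of C12orf52. None of these genes passed the adjusted threshold in edgeR.

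Among 59 factors of 40S assembly 3 were lower (5.08%) and 4 higher (6.78%) at the unadjusted threshold, beside 2.86% and 2.71% of all genes. BMS1, a GTPase of the early small-subunit particle, had the largest positive difference of that list. Its sgRNAs summed to 46.3 and 42.7 CPM at day 0 and 3.69 and 4.86 CPM at day 9 in wild-type cells, and to 40.1 and 46.5 CPM at day 0 and 8.96 and 7.38 CPM at day 9 in mutant cells. Depletion was thus 10.4-fold in wild-type and 5.35-fold in mutant cells, a difference of 0.96 (SE 0.234, edgeR adjusted p = 0.39), with 4 of 5 sgRNAs higher. HEATR1, another small-subunit assembly factor, went the other way, at -0.57 (SE 0.236). RNA polymerase I genes had 1 of 19 lower (5.26%), ZNRD1 at -0.45 (SE 0.191), and 0 higher. For ZNRD1 the lines differed by 0.33 (SE 0.133) at day 0 and by -0.13 (SE 0.137) at day 9.

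Quality control of stalled ribosomes was represented by 10 genes. NEMF, which binds 60S subunits that still hold a nascent chain, had a difference of -0.84 (SE 0.215, edgeR adjusted p = 0.502). Its sgRNAs summed to 24.0 and 31.4 CPM in the wild-type and 18.3 and 12.6 CPM in the mutant day 9 libraries, and to between 40 and 44.3 CPM at day 0. All 5 NEMF sgRNAs were lower, by differences from -2.72 to -0.68. LTN1, the ubiquitin ligase that works with NEMF, had a difference of -0.50 (SE 0.212, unadjusted p = 0.0248 and adjusted p = 0.883), with 4 of 5 sgRNAs lower. NEMF and LTN1 were the 2 of 10 genes (20.0%) lower at the unadjusted threshold and 0 were higher, beside 2.86% and 2.71% of all genes. The other 8 had differences from -0.16 to 0.12 and the list a median of 0.02. ANKZF1, the hydrolase that frees the chain, was at 0.03 (SE 0.13), and VCP, the extraction ATPase, at 0.12 (SE 0.39). The SE of VCP is wide enough that a difference as large as that of LTN1 lies within 2 of them. NEMF was called by limma-voom (adjusted p = 0.0254) and by neither the main edgeR fit nor DESeq2 (adjusted p = 0.0587). In all, 3 of the 19 alternative settings called it.

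UFMylation attaches the small protein UFM1 to the 60S subunit at the endoplasmic reticulum. UFL1 and DDRGK1, which form the ligase, had differences of -0.54 (SE 0.191) and -0.43 (SE 0.157), each with 4 of 5 sgRNAs lower. UFSP2, the protease that removes UFM1, was at 0.26 (SE 0.125), with sgRNAs near those of C4orf47 and 3 of 5 higher. For UFSP2 the lines differed by -0.22 (SE 0.088) at day 0 and by 0.04 (SE 0.089) at day 9. UFL1, DDRGK1 and UFSP2 passed the unadjusted threshold. That was 2 of 8 genes lower (25.0%) and 1 higher (12.5%), beside 2.86% and 2.71% of all genes. None passed the adjusted threshold in edgeR (adjusted p from 0.883 to 0.89). UFM1 itself was at 0.06 (SE 0.15), and the list had a median of -0.16. Collision sensing and rescue, with 30 genes, had 1 on each side (3.33% each, beside 2.86% and 2.71% of all genes). These were ABCE1 (-0.88, SE 0.264), the recycling factor, which shares at least 1 sgRNA position with ANAPC10, and CNOT4 (0.33, SE 0.159).

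The eIF2 and integrated stress response list had 0 of 21 genes lower and 3 higher (14.3%) at an unadjusted p under 0.05, beside 2.86% and 2.71% of all genes. EIF2B1, EIF2B3 and EIF2S2 were at 0.33, 0.48 and 0.39 (SE 0.147, 0.232 and 0.179), and the first of these has sgRNAs near GTF2H3. Higher sgRNAs were 5 of 5 for EIF2B1, 3 of 5 for EIF2B3 and 4 of 5 for EIF2S2. EIF2B1 and EIF2B3 encode subunits of the exchange factor that reloads eIF2, and EIF2S2 a subunit of eIF2. The other eIF2 subunits, EIF2S1 and EIF2S3, showed almost no difference, at -0.03 (SE 0.36) and -0.004 (SE 0.18). The other subunits of the exchange factor, EIF2B2, EIF2B4 and EIF2B5, had differences of 0.52, 0.16 and 0.19, within 2 SE of 0. The 4 eIF2 kinases of the list ran from -0.20 to 0.03 and ATF4, the transcription factor downstream, was at 0.10 (SE 0.17). The list median was 0.00, like that of all genes.

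Transcription and chromatin genes gave values on both sides. DPY30, a subunit of histone H3 lysine methyltransferase complexes, shares the positions of its 5 sgRNAs with MEMO1, so that the genes cannot be told apart by them. They summed to 67.8 and 70.5 CPM at day 0 and 39.3 and 45.2 CPM at day 9 in wild-type cells, and to 69.9 and 66.6 CPM at day 0 and 22.8 and 26.5 CPM at day 9 in mutant cells. The libraries of day 9 did not overlap between the lines. The difference was -0.75 (SE 0.150, edgeR adjusted p = 0.0708, DESeq2 adjusted p = 0.000129), with 5 of 5 sgRNAs lower. MEMO1 has a second promoter, whose 5 sgRNAs gave a difference of -0.03 (SE 0.134). Of 46 chromatin and histone regulators 3 were lower (6.52%) and 5 higher (10.9%) at the unadjusted threshold, beside 2.86% and 2.71% of all genes. The lower ones were DPY30, KMT2A (-0.36, SE 0.150), a methyltransferase that works with DPY30, and the acetyltransferase KAT6A (-0.38, SE 0.159). The higher ones were CHAF1A (0.59), SSRP1 (0.56) and SUPT16H (0.40), both subunits of the histone chaperone FACT, SUPT6H (0.48), whose sgRNAs lie near those of SDF2, and EZH2 (0.39).

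Mediator, the complex that links transcription factors to RNA polymerase II, had a median difference of -0.18, the lowest of the 38 lists with more than 1 gene. Of its 32 genes 4 were lower (12.5%) and 2 higher (6.25%) at an unadjusted p under 0.05, beside 2.86% and 2.71% of all genes. A negative sign was found for 23 (71.9%, beside 50.4% of all genes). Mediator genes were depleted in both lines, with median changes of -0.90 in wild-type and -1.17 in mutant cells. Over all genes with a mean change of the lines between -2 and -1, 8.73% were lower and 6.37% higher. Between -1 and -0.5 these shares were 5.08% and 5.76%. The 4 lower genes were MED11, in the head of the complex, at -1.05 (SE 0.274, edgeR adjusted p = 0.574), MED30 (-0.78), MED24 (-0.45) and MED15 (-0.39). The level of MED11 at day 9 was 10.1 and 10.8 CPM in wild-type cells and 4.65 and 6.27 CPM in mutant cells. The 2 higher genes, MED12 and CDK8, belong to the kinase module, which docks on the rest of the complex. MED12 had 6.13 and 5.10 CPM at day 9 in wild-type cells and 12.4 and 9.68 CPM in mutant cells, and all 5 sgRNAs were higher (difference 0.80, SE 0.244, adjusted p = 0.752). CDK8 was at 0.36 (SE 0.159). Other module genes, looked up after these values were seen, were CCNC at 0.30 (SE 0.17), MED13 at 0.00 (SE 0.15), MED13L at 0.04 (SE 0.14) and CDK19 at -0.19 (SE 0.12), each within 2 SE of 0.

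**Figure D5:**
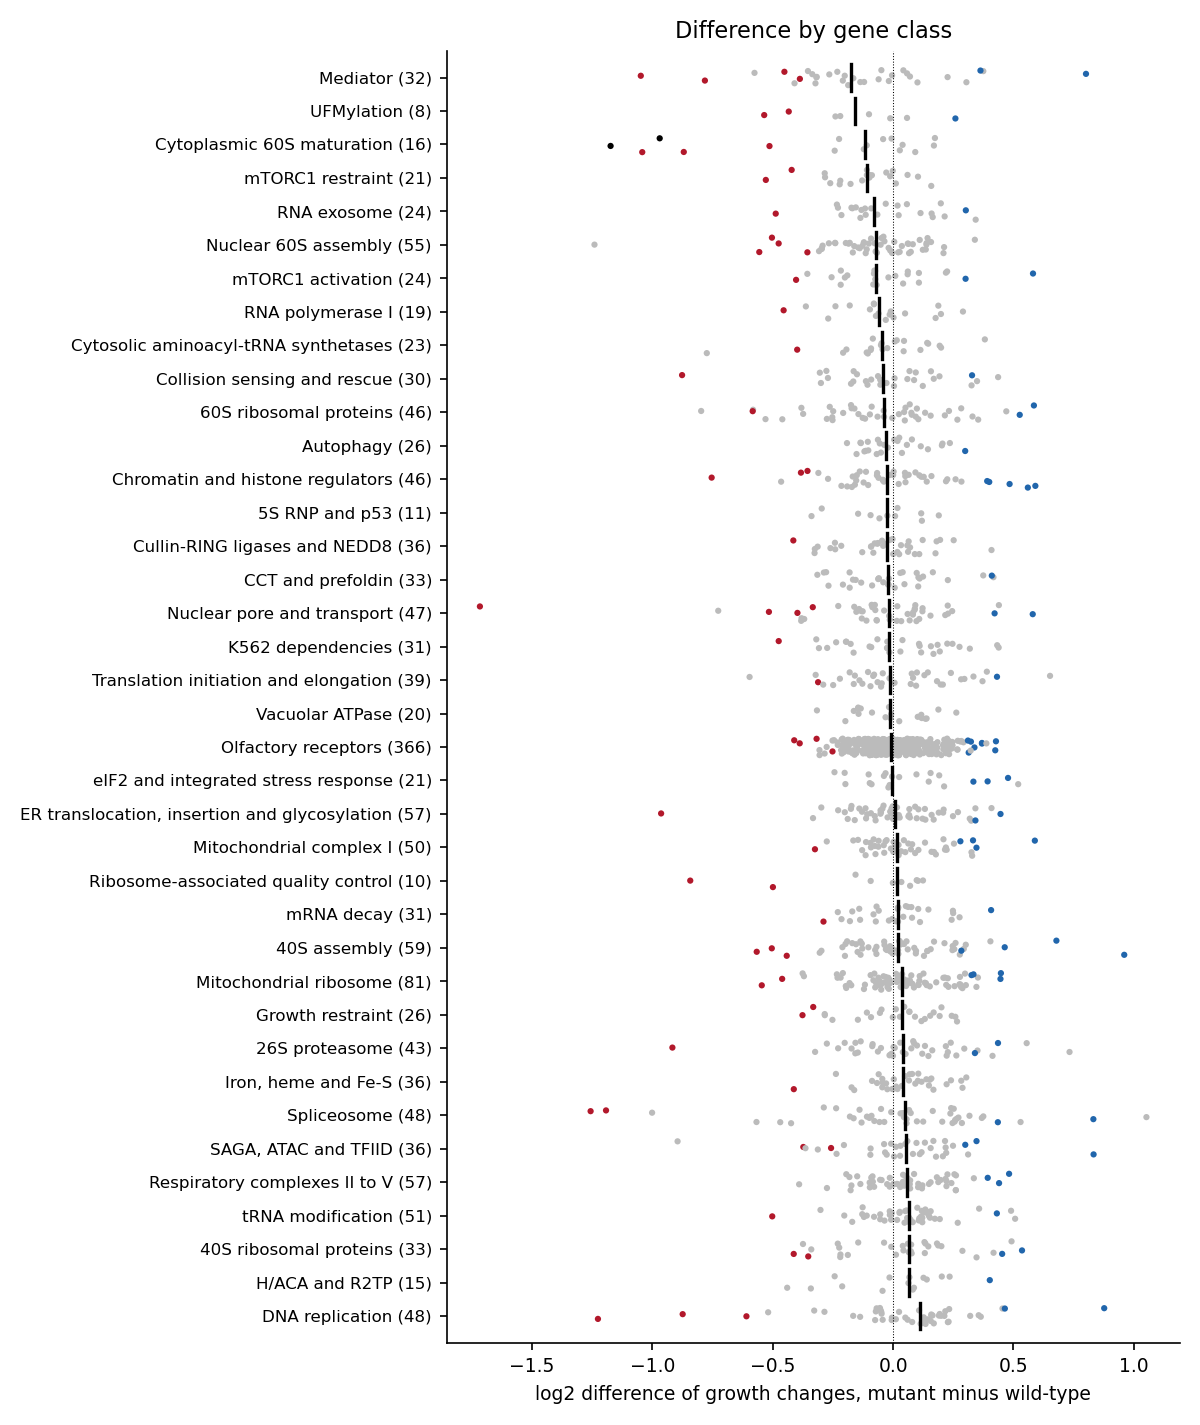
Log2 difference of growth changes of each gene in the 38 lists with more than 1 gene, ordered by list median (black bars); numbers in brackets are genes tested. Black points have an edgeR adjusted p under 0.05, red and blue points an unadjusted p under 0.05 below and above 0, and grey points neither. List medians run from -0.18 for Mediator to 0.11 for DNA replication, and the adjusted threshold is passed in cytoplasmic 60S maturation, where 2 points are black.

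No gene passed the adjusted threshold on the buffering side in edgeR. NABP2, a single-stranded DNA-binding protein, had the smallest p there. It summed to 41.0 and 43.6 CPM at day 0 and 33.4 and 39.5 CPM at day 9 in wild-type cells, and to 36.6 and 38.2 CPM at day 0 and 53.5 and 55.4 CPM at day 9 in mutant cells, where it was thus highest. The difference was 0.76 (SE 0.158, edgeR adjusted p = 0.104, DESeq2 adjusted p = 0.000138, limma-voom adjusted p = 0.0214). In all, 5 of the 19 alternative settings called it. The NABP2 sgRNAs were unequal. Those with 63.6%, 60.1% and 21.1% left in wild-type cells had 200%, 118% and 251% left in mutant cells, whereas the other 2 had differences of -0.02 and 0.02. The sparsest had a difference of 3.57. The 5 second-promoter sgRNAs of NABP2 gave a difference of 0.18 (SE 0.153).

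TCEB3, which encodes Elongin A, an RNA polymerase II elongation factor, had 5 of 5 sgRNAs higher in mutant cells, by differences from 0.32 to 0.79. Its sums were 57.2 and 54.8 CPM at day 0 and 50.5 and 45.1 CPM at day 9 in wild-type cells, and 56.6 and 57.8 CPM at day 0 and 70.1 and 73.1 CPM at day 9 in mutant cells. The changes had opposite signs, -0.23 and 0.32, of which the second passed the threshold (edgeR adjusted p = 0.0203). The difference was 0.55 (SE 0.134, adjusted p = 0.386, DESeq2 adjusted p = 0.00192). NELFE, a subunit of the negative elongation factor that shares at least 1 sgRNA position with SKIV2L, was at 0.44 (SE 0.126), with 6 of 7 sgRNAs higher.

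The rest of the 12 buffering genes with the smallest p had differences from 0.50 to 0.96 apart from NELFE. They were BMS1, SH3RF2, TENM2, GNE, KLHL33, CCDC34, NDUFAF1, MMEL1 and RAB3GAP1. NDUFAF1, an assembly factor of mitochondrial complex I, fell from 53 and 48.5 to 25.4 and 25.5 CPM in wild-type cells, and stood at 40.6 and 44.6 CPM at day 0 and 30.6 and 33.5 CPM at day 9 in mutant cells. Its difference was 0.59 (SE 0.167, edgeR adjusted p = 0.693), with a day 0 offset between the lines of -0.25. GNE, an enzyme of sialic acid synthesis, had a difference of 0.55 (SE 0.152) and a day 0 offset of -0.28, and KLHL33 one of 0.53 (SE 0.147) and an offset of -0.27. For these 3 genes the day 0 libraries therefore carried part of the difference.

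Among mitochondrial lists, complex I had 1 of 50 genes lower (2%) and 4 higher (8%) at the unadjusted threshold, beside 2.86% and 2.71% of all genes. The higher ones were NDUFAF1, NDUFA10, NDUFA5 and NDUFAF3, from 0.28 to 0.59, of which the last has sgRNAs near those of DALRD3. The lower one was NDUFB5, with sgRNAs near those of MRPL47, at -0.32. Complexes II to V had 0 of 57 lower and 3 higher (5.26%), COX7A2 (0.39), LRPPRC (0.48) and COX19 (0.44). The mitochondrial ribosome had 2 of 81 lower (2.47%) and 4 higher (4.94%). These are small counts, and no difference from the other genes was tested. The medians were 0.02, 0.06 and 0.04, and 0 genes passed the adjusted threshold in edgeR.

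Other named genes on the synthetic sick side missed the adjusted threshold. RARB, a retinoic acid receptor, had a change of 0.36 in wild-type and -0.43 in mutant cells, with day 9 sums of 48.1 and 41.8 CPM against 26.3 and 29.1 CPM. All 5 RARB sgRNAs were lower, and the difference was -0.79 (SE 0.175, edgeR adjusted p = 0.179, DESeq2 adjusted p = 0.00085). IKZF3, a lymphoid zinc finger factor, had changes of 0.38 and -0.17 and a difference of -0.55 (SE 0.128, edgeR adjusted p = 0.287). The IKZF3 sums at day 0 were already apart, at 51.9 and 52.6 CPM in wild-type and 63.5 and 64.3 CPM in mutant cells, and at day 9 the lines differed by -0.26 (SE 0.0909).

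NUPL1, a nucleoporin with 3 sgRNAs, and SNRPE, a core protein of spliceosomal snRNPs, were depleted in both lines and more so in mutant cells. NUPL1 stood at 3.34 and 6.02 CPM in wild-type and 2.50 and 1.10 CPM in mutant day 9 libraries, a difference of -1.72 (SE 0.425, edgeR adjusted p = 0.4) that ran from -2.55 to -0.72 over the pairings of replicates. SNRPE stood at 5.42 and 6.09 CPM and at 2.23 and 2.91 CPM, a difference of -1.26 (SE 0.309, edgeR adjusted p = 0.4). Further dependencies of both lines with a negative difference were RFC3 of the replication clamp loader (-0.87, SE 0.240), PSMD4, a ubiquitin receptor of the proteasome (-0.92, SE 0.264), and SEC61A1 of the translocon (-0.96, SE 0.336), none past the adjusted threshold in edgeR. Other strong dependencies had positive differences that missed it as well. SNRPD1, a core protein of the same snRNPs as SNRPE, was at 0.83 (SE 0.307) and TAF2 of the general factor TFIID at 0.83 (SE 0.292). MCM5 of the replicative helicase was at 0.46 (SE 0.193) and POLD3 of DNA polymerase delta at 0.88 (SE 0.380). All 5 sgRNAs of MCM5 were higher in mutant cells, but only 3 of 5 for each of SNRPD1, TAF2 and POLD3. Single sgRNAs ran from -1.24 to 1.26 for SNRPD1 and from -1.86 to 1.49 for TAF2.

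Genes with a strongly negative mean change of the lines had wider differences than genes with a mean change near 0. The SD of the difference was 0.158 over the 16701 genes whose mean change of the lines lay between -0.25 and 0.25, 0.305 between -2 and -1 (424 genes) and 0.556 below -3 (46 genes). The median SE grew with it, from 0.148 to 0.206 and 0.351. Below -3, 8 genes were lower (17.4%) and 1 higher (2.17%) at the unadjusted threshold, beside 2.86% and 2.71% of all genes. The median difference in that range was -0.30. ZNF622 and RPL10 lie in the range from -1 to -0.5 and ZNF574 in that from -2 to -1, so their differences stand beside those of 590 and 424 genes with a like mean effect.

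The mTORC1 restraint genes had a negative sign in 17 of 21 (81.0%, beside 50.4% of all genes) and a median of -0.11. Of them 2 were lower at the unadjusted threshold (9.52%, beside 2.86% of all genes) and 0 higher. The lower ones were NPRL3 of the GATOR1 complex at -0.53 (SE 0.186) and SESN2 at -0.42 (SE 0.189), each with an edgeR adjusted p of 0.883. Among the 24 genes of mTORC1 activation, RPTOR, the defining subunit, was at 0.58 (SE 0.188, 3 of 5 sgRNAs higher) and LAMTOR2 at -0.40 (SE 0.171). The DNA replication list had the highest median of the lists, 0.11, with 3 of 48 lower (6.25%) and 2 higher (4.17%). The 5S RNP and p53 list, 11 genes, and the vacuolar ATPase, 20 genes, had 0 in either direction at the unadjusted threshold in edgeR. Olfactory receptors, which these cells are not expected to need, had 4 of 366 lower (1.09%) and 8 higher (2.19%), with a median of -0.01.

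Compared within a day, the lines differed at day 9 for 27 genes lower (0.143%) and 15 higher (0.0793%) in mutant cells by edgeR's adjusted p, and at day 0 for 0 genes, with 246 at an unadjusted p under 0.05. The fit used 1 estimate of the spread for both days, although replicates differed more at day 9. Their SD was 0.209 and 0.193 at day 9 and 0.135 and 0.112 at day 0, in wild-type and mutant cells. The SE may therefore be too small at day 9 and too large at day 0, and the counts of the days cannot be compared directly. The day 9 comparison shares its libraries with the difference, so it is no separate support. Its values for the described genes were -2.02 for ZNF574 (SE 0.147), -0.91 for ZNF622 (SE 0.110), -1.20 for RPL10 (SE 0.157), -0.76 for NMD3 (SE 0.134) and -0.52 for DNAJC21 (SE 0.107). The values at day 0 were 0.01, 0.06, -0.03, 0.10 and -0.01. On the other side, BMS1 was at 0.92 (SE 0.178), MED12 at 0.96 (SE 0.181), TCEB3 at 0.58 (SE 0.0956) and NABP2 at 0.58 (SE 0.113) at day 9.

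For single sgRNAs, 0 of 102987 passed edgeR's threshold for the difference, with 5268 at an unadjusted p under 0.05 and a lowest adjusted p of 0.103. The SD of the difference over single sgRNAs was 0.473, beside 0.459 for the controls. The 3 calls are of sums over the sgRNAs of a gene.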

How the data were processed

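Genomic DNA libraries of sgRNA sequences were counted in the 4 groups of 2 described above, which were taken from the labels. The authors deposited 1 table of raw read counts per sgRNA, without normalization. No source used here names the counting program, and the positions in sgRNA names were used only to find sgRNAs of different genes within 1000 bases of each other. The table lists 209070 sgRNAs, of which 3790 are controls and 103686 were at 0 in every library. After the minimum mean count of 20, 102987 targeting and 1894 control sgRNAs stayed. sgRNAs of a gene's second promoter were tested apart. Library totals were 39233340 to 143585751. Reads are PCR copies with no molecular identifiers, so depth covers counting error only.

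Sums per gene were scaled by TMM and fitted with edgeR 4.0.16 in R 4.3.3 (quasi-likelihood, glmQLFit and glmQLFTest, 1 mean per group over all 8 libraries). Contrasts gave the growth change of each line, the difference between lines, and the lines against each other on 1 day. P-values were adjusted by Benjamini-Hochberg over all genes of a fit, with a threshold of 0.05. The SE was taken from the change and its test statistic. Alternatives, 19 in all, were scaling to control sgRNAs, DESeq2 1.42.0, RLE size factors, a minimum mean count of 100 or no minimum, limma 3.58.1 on mean log2 CPM, leaving out the most abundant sgRNA or 1 library, all promoters summed, replicate blocks, and limma-voom with a weight per day. The last was chosen after seeing the data. The fit was tested on simulated data.

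The comparison and the gene lists were chosen with earlier results of these data known. Named were genes past the threshold, the 12 genes with the smallest p each way with at least 75% of sgRNAs and all replicate pairings in 1 direction, the member of each list with the smallest unadjusted p under 0.05 each way, all cytoplasmic 60S maturation factors, ZNF574 and RPL10. Other genes were chosen after their values were seen: list members past the unadjusted threshold where a list had 5 or fewer each way, subunits and partners of those described, and the K562 dependencies. Deviations of same-numbered replicates from the group means correlated by at most 0.047. Between the days they correlated by 0.023 in the wild-type and 0.047 in the mutant line. Whether same-numbered replicates share a culture is not given in the labels.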

Additional observations from a re-analysis of the deposited data

Results flagged for a closer look

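The difference between lines was itself tested, and passed edgeR's threshold, for 3 genes. ZNF574 had a log2 difference of growth changes of -2.03 (adjusted p = 2.84e-07), ZNF622 one of -0.97 (adjusted p = 0.00378) and RPL10 one of -1.17 (adjusted p = 0.0396). In each of them the mutant line moved down past the threshold while the wild-type change had an edgeR adjusted p of 0.0963, 0.329 and 0.814. All sgRNAs of these genes at the primary promoter had the direction of the sum, 5, 5 and 4 in number. Groups held 2 libraries, too few to look for single libraries far from the others.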

How the results depend on the processing

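ZNF574 was called in 18 of 19 alternatives, ZNF622 in 18 and RPL10 in 10, and the difference kept its sign in each. With all promoters summed 1 gene was called, ZNF574 had a difference of -0.29 and RPL10 one of -1.17 (edgeR adjusted p = 0.060). RPL10 had -1.03 by limma on mean log2 CPM and -0.45 without its most abundant sgRNA. Leaving out 1 library gave differences of -2.18 to -1.85 for ZNF574, -1.11 to -0.83 for ZNF622 (its call was lost without wild-type day 0 replicate 1) and -1.36 to -0.95 for RPL10, 1 to 18 called genes, and 457 to 1794 genes at an unadjusted p under 0.05. DESeq2 called 47 genes and had 1851 at the unadjusted threshold, and limma-voom with a weight per day called 6. The replicate block within each line gave 9 called genes (8 lower, 1 higher) and the replicate block over all libraries 5. The cause of these changes was not tested. Scaling to control sgRNAs, RLE size factors and both filters on counts called 3 genes each. For the other named genes, 1463 of 1577 values under the alternatives stayed short of the threshold and within 1 SE of the main value. Differences near 0 could change sign among these, as for RSL24D1 (-0.03 to 0.12) and SPATA5 (-0.10 to 0.18). Of the rest, 44 gained the threshold, 70 stayed short of it but moved by more than 1 SE, and 0 changed sign past it. With 2 libraries a group and a median SE of 0.150, small differences were not detectable.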
